A study of Triticum aestivum with 15 samples.

Results

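Transcripts of the first and the last proton-pumping complex of the mitochondrial respiratory chain were followed in leaves of 5 wheat lines with native or alien cytoplasm. The probe sets were those that the study's annotation places in its classes of NADH dehydrogenase or cytochrome c oxidase, 8 of the 61290 on the array. They stand for 7 genes. For 6 of the probe sets the gene lies in the mitochondrial genome: nad2, nad3, nad6, cox1 and cox3, which has a pair of probe sets, told apart here by the ending of their identifiers as A1_at and S1_s_at. The other 2 stand for nuclear genes, namely subunit VIa of cytochrome c oxidase (COX VIa) and the copper chaperone COX17. They were listed in the study because they differed between TH237 and T20 on these same arrays, nad6 also because it differed between alloplasmic lines and Chris. Their differences in those comparisons are therefore given below as a description, with no p.

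An alloplasmic line carries the nucleus of a wheat and the cytoplasm, with its mitochondria and plastids, of another species, while its euplasmic control keeps the cytoplasm of the wheat. TH237 holds the cytoplasm of Hordeum chilense accession H7, a wild barley, in the nucleus of accession T20. T183 holds the cytoplasm of Aegilops uniaristata and T195 that of Aegilops squarrosa, named Ae. tauschii by the study, both in the nucleus of cultivar Chris. TH237 is compared with T20, its euplasmic control, while T183 and T195 have Chris as theirs. TH237 was obtained after fewer backcrosses than T183 and T195. All plants were 14 days old seedlings grown in soil under the higher of the study's light intensities, and the second fully expanded leaf was taken. Each line had 3 arrays, 15 in all, each made from the pooled plants of a pot. Both Aegilops lines share the Chris arrays, and an error in these enters both comparisons.

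Complex I, the NADH dehydrogenase, feeds electrons of NADH into the chain, and complex IV, the cytochrome c oxidase, passes them to oxygen. Both pump protons across the inner mitochondrial membrane, and both are built from subunits made inside the organelle together with subunits imported from the cytosol, so that mitochondrial and nuclear genes have to supply parts of the same enzyme. In complex I the subunits of the nad genes named here belong to the membrane arm, and in complex IV the subunits of cox1 and cox3 belong to the core. Plant mitochondrial transcripts mostly lack the stable poly(A) tail of nuclear messengers, and labelling on these arrays started from poly(A) RNA.

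The values were MAS 5.0 signals on a linear scale. Differences are on the scale of log2(signal + 16), with the standard error of a limma model of all 15 arrays, which understates the change of a dim probe set. The 55th percentile of the arrays lay between 89.98 and 121 and served as the level under which a signal counts as dim. It was exceeded on at least 3 arrays by 31555 probe sets, which were tested, and among them by all 8 described here. Calls required a change of 2-fold or more together with a p of 0.05 or less after Benjamini-Hochberg adjustment. Of 17 probe sets of light-harvesting proteins and the small subunit of rubisco, which the study had also listed for differing on these arrays, 9 were above that percentile on all 15 arrays, and the median over the 17 was 5515 to 6257 on TH237 arrays, 1853 to 2610 on T20 arrays, 139 to 243 on T183 arrays, 177 to 264 on T195 arrays and 292 to 1193 on Chris arrays. Their part in the differences below was not tested. The 4 poly(A) spike-in controls differed on average by 0.09 between TH237 and T20, by -0.17 between T183 and Chris and by 0.24 between T195 and Chris on the log2 scale. In leaf RNA, fewer mitochondria or cells of a type and less transcript in each cannot be told apart.

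**Figure D1:**
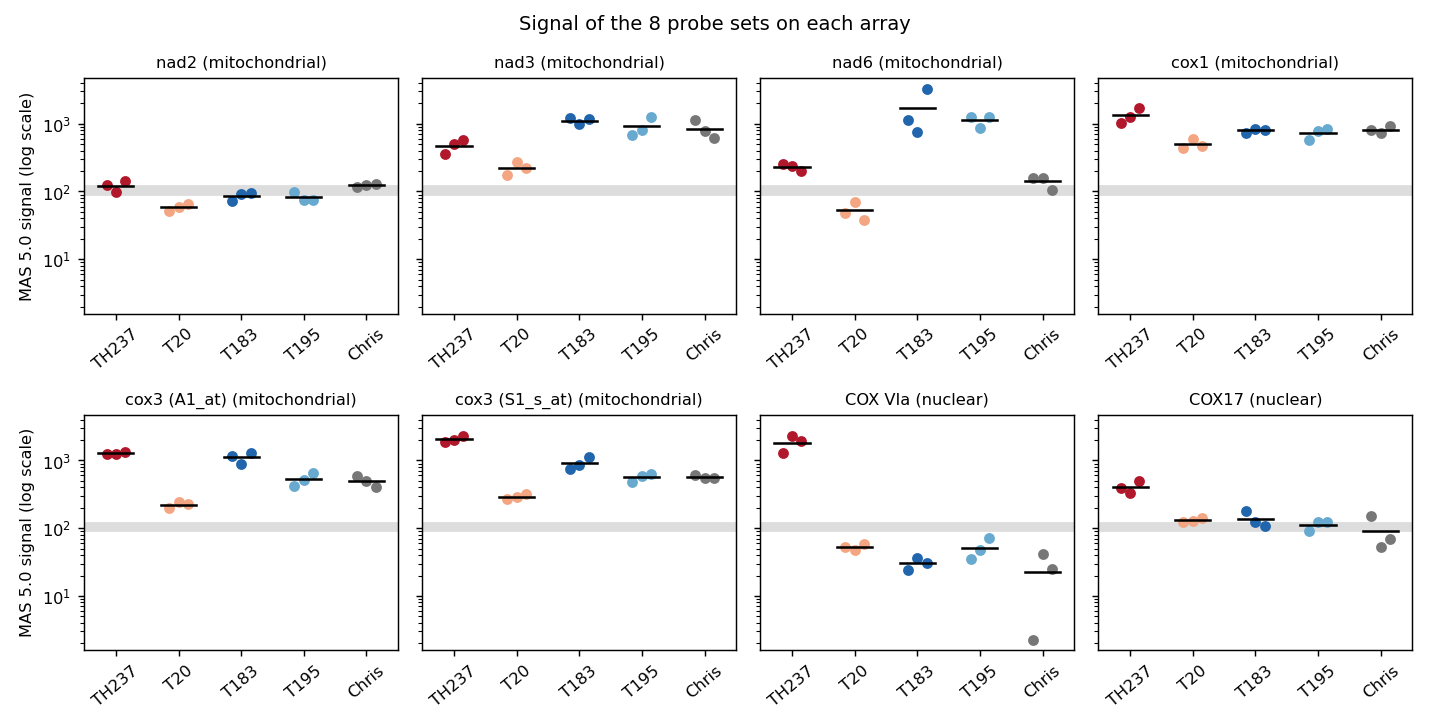
MAS 5.0 signal (log axis) of the 8 probe sets on the 3 arrays of each line, points for arrays and bars for the mean, with the range of the 55th percentiles in grey. All 8 are higher in TH237 than in T20 without overlap, and COX VIa is above the grey band in TH237 only.

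In TH237 all 8 probe sets had higher signals than in T20, without overlap between the arrays. The changes ran from 0.88 for nad2 to 4.71 for COX VIa, with a median of 1.62 over the 6 mitochondrial probe sets, 3.10 over the 2 nuclear ones and 0.00 over all 31555 tested. Higher signals without overlap were found for 12.4% of all probe sets. The 8 were chosen by this comparison, so nothing is read from that share.

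In the Chris background the picture was uneven. T183 had 4 of the 6 mitochondrial probe sets above and 2 below Chris, with a median of 0.55, and T195 had 3 above and 3 below, with a median of 0.04, which turned to -0.06 without Chris array 3 and to -0.10 without T195 array 3. Without nad6 the medians of the other mitochondrial probe sets were 0.45 in T183 and -0.00 in T195. COX VIa was dim in these 3 lines and nad6 had been chosen from them, which left 6 probe sets to test. Of these, 1 was called higher in T183, where 0.0254% of all probe sets were, and 0 in T195, where 0.0317% were called higher and 0.222% lower. At an unadjusted p below 0.05, limma gave 3 of the 6 in T183 (6.89% of all probe sets) and 1 of the 6 in T195 (11.2% of all). Arrays did not overlap for 2 higher and 1 lower of the 6 in T183, against 5.37% higher and 6.24% lower of all, and for 0 higher and 1 lower in T195, against 7.05% and 8.98% of all. On both counts the probe sets were nad2, which was lower, and in T183 also both of cox3, which were higher. The cox3 pair stands for the same gene, so these counts are not counts of separate genes and nothing is read from the shares.

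**Figure D2:**
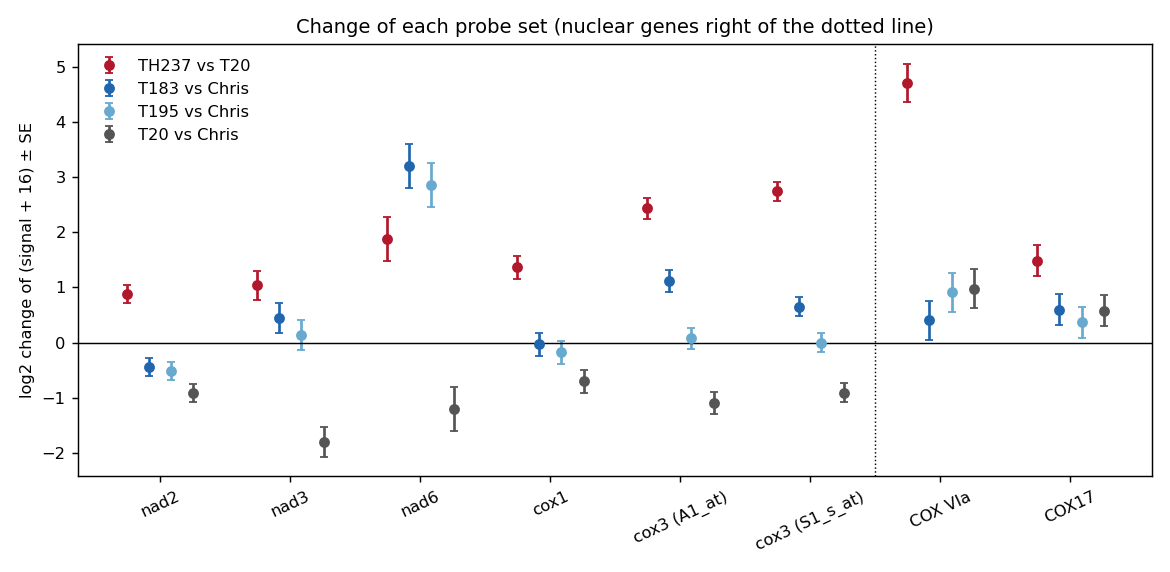
Change of each probe set on the log2(signal + 16) scale with its standard error, for TH237 against T20, T183 and T195 against Chris, and T20 against Chris, n = 3 arrays per line. Points of TH237 all lie above 0, points of T20 against Chris lie below 0 for the 6 mitochondrial probe sets. COX VIa was dim in every line but TH237.

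Of complex I, nad2 encodes a subunit of the membrane arm that is thought to take part in moving protons. Its signals were 124, 97.5 and 144 in TH237, against 50.7, 58.6 and 65.5 in T20. In the Chris background they were 73.5, 92.1 and 94.8 in T183 and 98.1, 74.8 and 74.5 in T195, against 115, 126 and 129.8 in Chris. The transcript was thus higher in TH237 than in its control and lower in both Aegilops lines than in theirs, with no overlap of arrays in any of these comparisons. All signals of T20, T183 and T195 were dim. The change was 0.88 ± 0.16 in TH237, at least 1.14-fold when each dim signal is raised to the percentile of its array. It was -0.44 ± 0.16 in T183 (limma adjusted p = 0.540, 95% interval -0.80 to -0.09), and -0.51 ± 0.16 in T195 (adjusted p = 0.246, interval -0.86 to -0.16), so that neither passed the test. On the same bound T183 was 1.22-fold and T195 1.28-fold lower than Chris. This bound allows for dim signals only and not for the spread between arrays, and both intervals also held smaller changes.

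The subunit of nad3, a small protein of the same arm, is matched by the annotation to carrot and Brassica sequences. In the RefSeq annotation of wheat (assembly IWGSC CS RefSeq v2.1) its gene stands next to rps12, for a protein of the mitochondrial ribosome. Its signals were 362, 502 and 567 in TH237, against 178, 274 and 219 in T20, a change of 1.04 ± 0.27. T183 gave 1201, 981 and 1157 and T195 gave 686, 805 and 1269, against 1129, 770.2 and 609 in Chris. The arrays of both Aegilops lines overlapped with Chris. The change was 0.45 ± 0.27 in T183 (adjusted p = 0.826, interval -0.13 to 1.03) and 0.13 ± 0.27 in T195 (adjusted p = 0.910, interval -0.45 to 0.71), so that a rise of up to 2.04-fold in T183 was within the interval. nad3 was the mitochondrial probe set whose TH237 arrays, although above T20, all stayed below those of the lines with a Chris nucleus.

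nad6 encodes another membrane subunit of complex I, and its probe set is matched to the wheat mitochondrial chain 6, although the Arabidopsis locus given beside it is described as a putative cytochrome b. Its signals were 252, 239 and 203 in TH237, against 48.5, 70.7 and 38.1 in T20. They were 1155, 744 and 3245 in T183 and 1238, 874 and 1266 in T195, against 157, 159.7 and 106 in Chris. Each alloplasmic line was above its control without overlap, and the Aegilops lines stood above all other arrays. The changes were 1.88 ± 0.40 in TH237, at least 2.17-fold since T20 was dim, 3.20 ± 0.40 in T183 and 2.86 ± 0.40 in T195. The T183 arrays were wide apart (1715 ± 1341, SD, n = 3), and without its array 3 the change there was 2.61. No p is given for nad6, since the study named it from these comparisons.

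Of complex IV, cox1 encodes the core subunit that binds the heme and copper at which oxygen is reduced. Its signals were 1017.5, 1267 and 1731 in TH237, against 444, 591 and 468 in T20, a change of 1.37 ± 0.21. In T183 they were 734, 851 and 815 and in T195 569, 784 and 837, against 814, 725 and 927 in Chris. Here the Aegilops lines and Chris overlapped, with changes of -0.03 ± 0.21 in T183 (adjusted p = 0.993, interval -0.48 to 0.41) and -0.18 ± 0.21 in T195 (adjusted p = 0.825, interval -0.63 to 0.27). A change of more than 1.33-fold upwards in T183 lay outside the interval. In TH237, cox1 was above the arrays of all other lines.

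Subunit III, from cox3, is a core protein that holds no metal. Its A1_at probe set gave 1239, 1230.1 and 1349.5 in TH237, against 199, 246 and 226 in T20. It gave 1158, 884 and 1284 in T183 and 417, 523 and 655 in T195, against 596, 498 and 409.9 in Chris. TH237 and T183 were high and close to each other, T195 and Chris overlapped, and T20 was lowest. The change was 2.43 ± 0.19 in TH237. In T183 it was 1.12 ± 0.19, or 2.17-fold (adjusted p = 0.0498, interval 0.70 to 1.54), and in T195 it was 0.07 ± 0.19 (adjusted p = 0.934, interval -0.35 to 0.49). cox3 A1_at was thus the probe set called in T183, just inside the threshold.

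That call was lost in 11 of 16 alternative settings, with adjusted p between 0.0234 and 0.967, while the change stayed between 0.99 and 1.27. The call was kept at a limma adjusted p of 0.0326 without Chris array 1 and 0.0394 without T183 array 2. It was lost on removal of any other array of these lines. The limma adjusted p was then 0.183 without Chris array 2, 0.255 without Chris array 3, 0.233 without T183 array 1 and 0.148 without T183 array 3.

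The S1_s_at probe set of cox3 gave 1862, 1971 and 2319 in TH237, against 267, 291 and 321 in T20, a change of 2.74 ± 0.17. In T183 it gave 737, 852 and 1137 and in T195 476, 597 and 635, against 601, 549 and 548 in Chris. T183 was above Chris without overlap here too, but by less. The change was 0.65 ± 0.17 in T183 (adjusted p = 0.321, interval 0.27 to 1.02) and -0.00 ± 0.17 in T195 (interval -0.37 to 0.37, not called).

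Both cox3 probe sets were matched to the same wheat protein, and over the 15 arrays their log2 values correlated with r = 0.92. The log2 of S1_s_at over A1_at was 0.59, 0.68 and 0.78 in TH237, against 0.43, 0.24 and 0.51 in T20, and -0.65, -0.05 and -0.18 in T183, against 0.01, 0.14 and 0.42 in Chris. The log2 ratio was highest in TH237 and lowest in T183. Between T183 and Chris it differed by -0.48 without overlap (exact two-sided permutation p = 0.10) and between T195 and Chris by -0.08 (exact permutation p = 0.60), where 3 against 3 arrays allow no p below 0.10, so that no difference could pass. Between TH237 and T20, whose arrays chose both probe sets, it differed by 0.29, with no test.

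**Figure D3:**
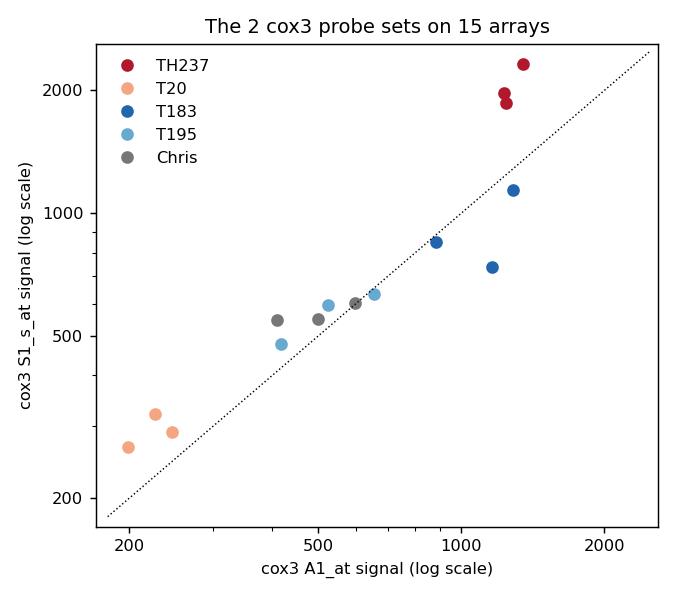
Signals of the 2 cox3 probe sets on the 15 arrays (log axes), one point per array, the dotted line marking a ratio of 1. On the A1_at axis TH237 and T183 overlap, while on the S1_s_at axis all TH237 arrays lie above all T183 arrays.

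Among the nuclear genes, COX VIa encodes a small subunit at the rim of the oxidase that is known in yeast and mammals to modulate its activity. Its signals were 1278, 2299 and 1936 in TH237, against 53.5, 46.9 and 59.2 in T20. They were 24.1, 36.6 and 30.9 in T183 and 35.5, 46.9 and 72.5 in T195, against 2.25, 40.9 and 25.4 in Chris. The probe set was dim on every array of T20, T183, T195 and Chris and stood far above them in TH237. It passed the filter through the TH237 arrays alone. The change in TH237 was 4.71 ± 0.35, and on the bound TH237 was at least 16.8-fold higher than T20. Among the dim lines its changes are not read and no test is given, although they enter the means and medians of the nuclear probe sets.

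COX17 delivers copper to the oxidase in the intermembrane space of mitochondria, as known from yeast, although the annotation places this probe set in the chloroplast. Its signals were 389.7, 329 and 489.55 in TH237, against 123, 129 and 143 in T20, a change of 1.49 ± 0.28. T183 gave 177, 123 and 107 and T195 gave 90.9, 122 and 123, against 149.97, 52.0 and 69.4 in Chris. TH237 lay above all other arrays, and Chris was spread widely, with 2 of its 3 arrays dim. The changes of COX17 were 0.59 ± 0.28 in T183 (adjusted p = 0.741, interval -0.02 to 1.21) and 0.36 ± 0.28 in T195 (adjusted p = 0.709, interval -0.25 to 0.98). A further probe set of the sequence cluster of COX17 was dim on all arrays, at 5.18, 7.08 and 64.2 in TH237 against 3.86, 8.05 and 8.91 in T20.

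The comparison of mitochondrial with nuclear probe sets was made on the mean log2(signal + 16) of each kind on each array. Levels of different probe sets cannot be set against each other, so that only the shift between lines is read. The mitochondrial mean was 9.28 ± 0.15 in TH237 and 7.56 ± 0.17 in T20 (SD, n = 3). With the Chris nucleus it was 9.48 ± 0.29 in T183, 9.06 ± 0.19 in T195 and 8.66 ± 0.14 in Chris. The nuclear mean was 9.75 ± 0.23 in TH237 and 6.66 ± 0.10 in T20, while the lines of the Chris nucleus had 6.38 ± 0.11 (T183), 6.52 ± 0.29 (T195) and 5.88 ± 0.09 (Chris). In Chris the SD of the single nuclear probe sets was larger, 0.85 for COX VIa, dim there, and 0.67 for COX17. They varied in opposite directions between its arrays, so the SD of their mean does not show their spread. In TH237 both kinds were higher than in T20, the nuclear kind by more.

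**Figure D4:**
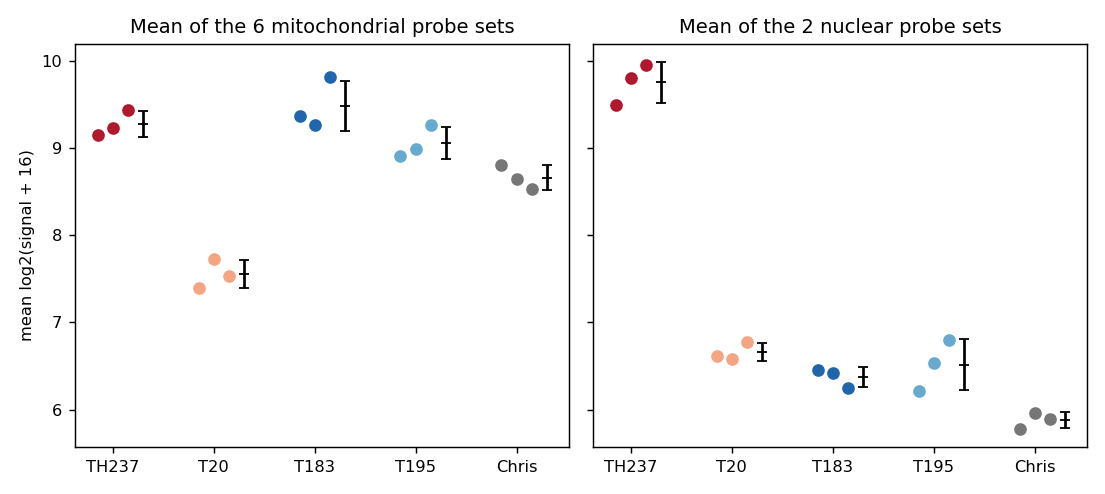
Mean log2(signal + 16) over the 6 mitochondrial (left) and the 2 nuclear probe sets (right) on each array, with the mean and SD of the 3 arrays of a line beside the points. TH237 is above T20 in both panels, while T20 is the lowest line on the left only.

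The mean change of the mitochondrial probe sets minus that of the nuclear ones was -1.37 for TH237 against T20, 0.33 for T183 and -0.24 for T195 against Chris. The shift in TH237 rested on COX VIa, since against COX17 alone the difference was 0.24 for TH237, 0.23 for T183 and 0.03 for T195. With only 2 nuclear probe sets, of which COX VIa was dim in 4 lines, no test was made of this difference.

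The euplasmic lines were also set against each other. T20 was lower than Chris in all 6 mitochondrial probe sets, without overlap in any, where 17.3% of all probe sets were lower without overlap. The changes were -0.91 ± 0.16 for nad2, -1.80 ± 0.27 for nad3, -1.21 ± 0.40 for nad6, -0.70 ± 0.21 for cox1, -1.10 ± 0.19 for cox3 A1_at and -0.91 ± 0.17 for cox3 S1_s_at, with a median of -1.01. COX17 differed by 0.58 ± 0.28, with overlap of the arrays, and COX VIa was dim in both lines. T20 had the lowest mean of all 5 lines for 6 of 6 mitochondrial probe sets, and for 5 of them it did not overlap with the next line, cox1 overlapping with T195. Probe sets chosen because T20 was below TH237 tend to be low in T20, so these values are a description and nothing is read from the share. The poly(A) spike-in controls were higher in T20 than in Chris by 0.49 on the log2 scale, opposite in sign to the mitochondrial probe sets; their part in the difference was not tested.

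Between the Aegilops cytoplasms, in the same nucleus, the mean of each of the 6 mitochondrial probe sets was higher in T183 than in T195, by a median of 0.33, both of cox3 without overlap and the other 4 with overlap. The sign turned for nad6 without T183 array 3 (-0.26), for cox1 without T195 array 1 (-0.02) and for nad2, dim in both lines, with median or quantile scaling (-0.01 and -0.00). Among the 5 probe sets tested, 2 were higher without overlap, against 6.31% of all probe sets, and 0 were called by limma, against 0.0444% of all called higher. At an unadjusted p below 0.05 limma gave 2 of the 5 (7.89% of all), and the methods' t-test after adjustment called 0. On both limma and overlap the 2 were the cox3 pair, which stands for the same gene. The probe set nearest to the threshold was cox3 A1_at, with 1158, 884 and 1284 in T183 and 417, 523 and 655 in T195, a change of 1.05 ± 0.19 (adjusted p = 0.0798, interval 0.63 to 1.46). cox3 S1_s_at differed by 0.65 ± 0.17 (adjusted p = 0.274), and the other tested probe sets had adjusted p between 0.882 and 0.953. The poly(A) spike-in controls differed by -0.41 between T183 and T195 on the log2 scale, opposite in sign to the mitochondrial probe sets. Their part in the difference was not tested.

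In the order of the lines, TH237 was highest for cox1, both cox3 probe sets, COX VIa and COX17, and for 4 of these 5 it did not overlap with the next line, cox3 A1_at overlapping with T183. T183 was highest for nad3 and nad6, where T195 followed with overlap, and Chris was highest for nad2, where TH237 overlapped. The median change of the complex I probe sets was 1.04 for TH237, 0.45 for T183 and 0.13 for T195. For the core of complex IV, that is cox1 and both cox3 probe sets without COX VIa, it was 2.43 for TH237, 0.65 for T183 and -0.00 for T195. Each of these medians is the value of a cox3 probe set, since that gene enters by both of its probe sets. The changes of cox1 were 1.37, -0.03 and -0.18 in the same order. The medians of the complexes are therefore not set against each other.

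Across the 15 arrays the log2 values of the 15 pairs of mitochondrial probe sets correlated with a median r of 0.59, from 0.10 to 0.92. After the mean of each line was removed, the median r was 0.34, from -0.25 to 0.85, the highest being nad3 with cox3 A1_at. For the 12 pairs of a mitochondrial and a nuclear probe set the median r was 0.42 over all arrays and 0.06 within lines. The arrays share lines and scaling, so these values only describe.

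Beside the 8, the study placed 15 further probe sets in the mitochondrion, also chosen for differing on these arrays. In TH237, 4 of the 15 were called higher and 7 lower (1.35% and 0.925% of all), with a median of -0.38, where all 8 probe sets of complexes I and IV were higher. Among them, TH237 was dim and at least 5.86-fold lower for a sequence matched to the pine open reading frame ORF45a, and dim and at least 4.81-fold lower for a rye mitochondrial repeat with initiator tRNA and 18S and 5S rRNA. The ORF45a sequence was also dim and lower than Chris in both Aegilops lines, at least 25.6-fold in T183 and 27.0-fold in T195. The rye repeat was not called in either of these lines, but its signals were above Chris without overlap in both. Its changes were 1.53 in T183 (limma adjusted p = 0.222) and 1.13 in T195 (limma adjusted p = 0.252). Of 2 maturase probe sets A1_at differed by 2.71 on the log2 scale, and S1_at, dim in T20, was at least 2.01-fold higher. Not every probe set that the study places in the mitochondrion was thus higher in TH237. In T183, 2 were called higher and 1 lower (0.0254% and 0.0982% of all), with a median of 0.21, and in T195, 2 higher and 3 lower (0.0317% and 0.222% of all), with a median of 0.10. Since the study chose this list for differing on these arrays, nothing is read from its shares. Chosen after its values were seen, protoheme IX farnesyltransferase, which makes a precursor of the heme of the oxidase, gave 197, 234 and 231 in TH237 against 1099, 910.5 and 1023 in T20, opposite to the oxidase subunits. The other lines were near TH237, at 184 to 239 in T183, 115 to 170 in T195 and 138 to 261 in Chris, so that T20 alone stood apart.

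**Figure D5:**
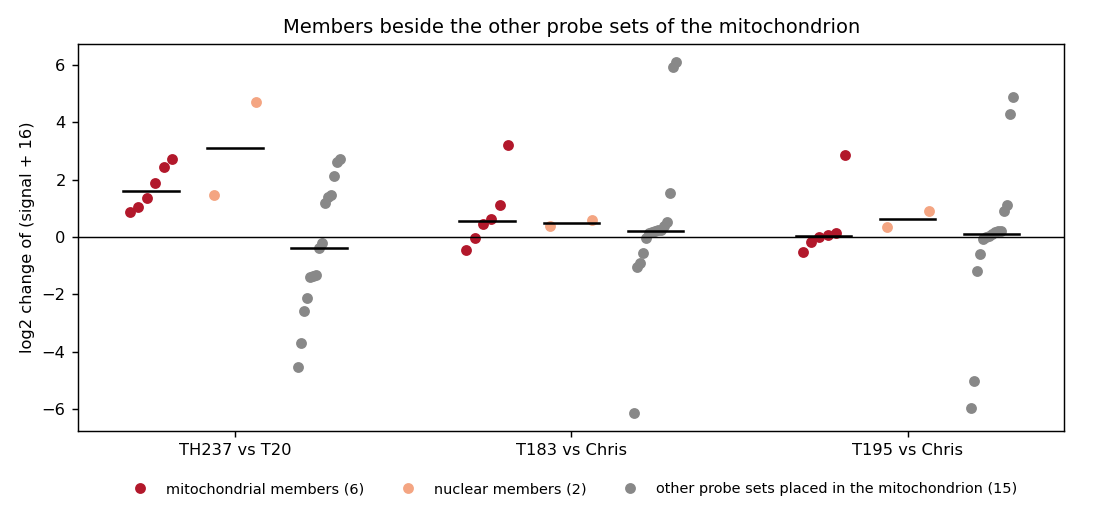
Change on the log2(signal + 16) scale of the 6 mitochondrial and 2 nuclear probe sets of complexes I and IV and of the 15 other probe sets placed in the mitochondrion, for each alloplasmic line against its control, with bars for medians. In TH237 the medians are 1.62, 3.10 and -0.38.

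Among all probe sets tested, those most like a member by Pearson correlation over the 15 arrays were named. For nad6 they were the same maturase probe sets, A1_at with r = 0.96 and S1_at with r = 0.94. The annotation sets A1_at beside maturase genes of Arabidopsis and beside matR of wheat, which lies in an intron of mitochondrial nad1. A1_at gave 348, 455 and 635 in TH237, against 15.2 to 138 in T20. It gave 10946, 6961 and 10146 in T183 and 4922, 3622 and 3257 in T195, against 114, 112 and 121 in Chris. The lines stood in the same order as for nad6. For COX VIa they were a glycosyl hydrolase of family 51 (r = 0.96) and the plastid ATP synthase subunit CF0 B (r = 0.96), whose arrays of TH237 all lay above those of the other lines. For cox3 S1_s_at the closest was the mitochondrial small heat shock protein HSP23.6 (r = 0.93), and for cox1 the annotated one was a phloem lectin (r = 0.89). The most alike probe sets of nad2, nad3 and COX17 were not among those listed by the study, whose list was the only source of descriptions here. For cox3 A1_at the closest was listed as unknown and the next was not listed.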

How the data were processed

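Leaf RNA of 5 lines was measured on 15 Affymetrix Wheat Genome Arrays, and the labels gave the line and the replicate number of each array. The authors deposited intensity values, one MAS 5.0 signal per probe set and array (version not given in the sources used here), scaled to the same trimmed mean on each array; for its own comparisons the study used RMA, whose values do not enter here. The authors made cRNA from poly(A) RNA, and the probes were designed on wheat sequences; how well they match the donors' genes was not analysed here. The members were found by the classes of the study's annotation, and the members and lists were chosen with earlier results of these data known.

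From 61290 probe sets 111 controls were removed, 16 was added before the log2 was taken, and 31555 of 61179 remained that exceeded the 55th percentile on 3 arrays or more. One limma model (R 4.3.3, limma 3.58.1) of 5 lines had 10 residual and 3.20 prior degrees of freedom, with Benjamini-Hochberg adjustment over all 31555. The p-values measure the spread between these arrays, and 3 arrays a line limit the precision. For T20 against Chris no p is given, since this comparison shares the T20 arrays by which the members were chosen. Members dim in both lines of a comparison were not tested in it, a rule set after the values were seen. For a lower bound, each dim signal was replaced by its array's 55th percentile, which takes no account of the spread between arrays. Named were all members, probe sets of their clusters, the 4 largest called changes at most in a list and the 2 most like each member. Lists by gene symbol could not be used, since no member and no mitochondrial gene carries a symbol among the 1273 probe sets that have one. Code was tested on simulated data.

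Alternatives were the value added (1 or 64), the filter (none, or the 70th percentile), median or quantile scaling, only the arrays of a nuclear background, the methods' t-test, a trended and robust prior, the replicate number as a block, no fold limit, and the removal of each array.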

Additional observations from a re-analysis of the deposited data

Results flagged for a closer look

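nad2 differed in sign between the lines. Its signals were higher in TH237 than in T20 on all arrays, by 0.88 on the log2 scale, in the comparison that chose nad2. They were lower than in Chris on all arrays in T183, by -0.44 (limma adjusted p = 0.540), and in T195, by -0.51 (limma adjusted p = 0.246), so that neither passed the test, and both share the Chris arrays. The difference between these values was not tested. All nad2 signals of T20, T183 and T195 and 1 of the 3 of TH237 were dim.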

How the results depend on the processing

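Of 635 recomputed changes of single probe sets 16 had the other sign, all between values of at most 0.40 in size and none called, and 11 were lost calls of cox3 A1_at in T183. For cox3 S1_s_at in T195 the change of -0.00 became 0.00028 with 64 added, 0.067 with median scaling and 0.022 with quantile scaling, and for nad2 in T183 against T195 it became -0.011 with median and -0.0036 with quantile scaling. Without single arrays the changes that turned in T183 were those of cox1 (-0.12 to 0.055) and COX VIa (-0.068 to 0.75), the latter dim there and in Chris. In T195 they were those of nad3 (-0.12 to 0.37), cox3 A1_at (-0.084 to 0.23) and cox3 S1_s_at (-0.082 to 0.12). In T183 against T195 they were those of cox1 (-0.020 to 0.25) and nad6 (-0.26 to 0.79). Counts of members past the thresholds in TH237, in T20 against Chris and for nad6 rest on the arrays that chose them, so they only describe how the model moves and test nothing. Dim signals limit the sizes. With 64 added, the medians in TH237 fell to 1.32 for mitochondrial and 2.61 for nuclear probe sets, and those of T20 against Chris were -0.82 and 0.42. The nuclear median was 0.86 in T183 and 1.08 in T195 with 1 added, 0.28 and 0.33 with 64, and 1.25 in T20 against Chris with 1. In T183 the members called were 1, nad6, with 1 added, with no filter, with median or quantile scaling and with only the arrays of the Chris background. In T195 they were 0 with only the arrays of that background. In T20 against Chris they were 4 with 1 added, 1 with 64 and 5 without the fold limit. T183 against T195 had 1, cox3 A1_at, with the filter at the 70th percentile or the trended and robust prior. The methods' t-test called 0 members in each comparison, and over all probe sets 1, 1, 0, 306 and 0 for TH237, T183, T195, T20 against Chris, and T183 against T195. The study ran this test on other values and with another filter, so these counts cannot be set against its own. In the main model the members called were 7 in TH237, 2 in T183 and 1 in T195. They were 2 in T20 against Chris and 0 in T183 against T195. Of all probe sets tested, the main model called 719, 39, 80, 2311 and 23, in the same order. Without single arrays the members called were 5 to 6 in TH237 and 1 to 2 in T183. They were 0 to 1 in T195 (0 without Chris array 3) and 0 in T183 against T195. In T20 against Chris they were 1 to 3 (1 without Chris array 1). All probe sets called then ran from 437 to 609 in TH237, 28 to 75 in T183 and 33 to 108 in T195. They ran from 1927 to 2467 in T20 against Chris and 12 to 26 in T183 against T195.

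Same-numbered arrays of the lines compared correlated between -0.20 and 0.03, so the numbers do not pair them. With the replicate block 1 member was called in T183, where cox3 A1_at had an adjusted p of 0.0913; the numbers of calls in the other comparisons stayed within 1.5 times.

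All probe sets called also differed by more than 1.5 times: 1353 in TH237 and 4445 in T20 against Chris without the fold limit, 437 in TH237 without T20 array 1 and 477 without TH237 array 2, 75 in T183 without Chris array 1, 43 in T195 with no filter, 32 with only its background, 125 with the trended prior and 33 to 51 without Chris array 2 or 3 or T195 array 3. For T183 against T195 they were 35 with 64 added, 13 with no filter and 12 to 15 without array 3 of either line.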
